A study of Homo sapiens with 4 samples.

Results

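The expressed intergenic long noncoding RNAs of RPE1 cells were taken as the genes whose symbol starts with LINC followed by digits, whose RefSeq rows summed to a mean of at least 0.5 FPKM over 4 libraries and whose longest spliced transcript had at least 300 nt. FPKM counts the fragments of a transcript per kilobase of its length and per unit of mapped reads in the library. By that rule 66 genes were kept of 692 LINC symbols, and of 25027 symbols in all. The members were thus chosen by their FPKM in the same 4 libraries, and their levels are a description. A set of 12077 symbols passed the same minimums and serves as the background ("all symbols tested").

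RPE1 is a retinal pigment epithelial line, immortalised with telomerase (ATCC CRL-4000). In each of the 4 groups the cells had been transfected with 10 nM of a Stealth siRNA by Lipofectamine RNAi MAX. The groups were negative control siRNA at 24 h, SAF-A siRNA at 24 h, negative control siRNA at 48 h and SAF-A siRNA at 48 h after transfection. Where a gene has 4 values they follow that order, and a range in parentheses is the deposited 95% interval. Untransfected cells are not among the groups, and the knockdown rests on 1 siRNA sequence. Libraries were made from total RNA after removal of ribosomal RNA and read as 50-base single-end reads. Each group had 1 library, so differences have no replicate check, no test was run, and every statement describes these 4 libraries.

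HNRNPU encodes SAF-A, for scaffold attachment factor A, a common protein of the nucleus. It contacts both RNA and chromatin and holds some long noncoding RNAs on chromosomes. Intergenic long noncoding RNAs are transcribed by RNA polymerase II from stretches between protein-coding genes. Most are capped, spliced and polyadenylated like messenger RNAs, but they have fewer exons and lower levels. Many stay in the nucleus, where the RNA exosome, a complex of exonucleases with its cofactors, turns over much noncoding RNA.

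The targeted gene followed the labels. HNRNPU stood at 91.2 FPKM in control 24 h, 10.4 in SAF-A 24 h, 84.6 in control 48 h and 9.24 in SAF-A 48 h. The depth behind the libraries was uneven, with 28084000, 30701000, 28586000 and 1217000 mapped reads (to the nearest 1000). The SAF-A 48 h library therefore held a median of 2.51 estimated reads per LINC gene, against 60.9 to 66.1 in the others. Of the 66 genes, 48 had under 5 estimated reads there, and 8 were listed at 0. In the other libraries 1 to 3 genes had under 5 reads. An FPKM worth 3 reads, the limit that a count of 0 allows, had a median over the members of 1.48 in SAF-A 48 h and of 0.0588 to 0.0643 in the others. All 6 structural markers of the line (KRT7, KRT8, KRT18, VIM, CDH2 and LAMB1) reached 1 FPKM in some library, with sums of 2445, 2123, 1991 and 3503 FPKM. Most of each sum was VIM, with 2145, 1845, 1586 and 3312 FPKM. Between control and SAF-A at 48 h the vimentin gene VIM rose from 1586 to 3312 FPKM and the keratin gene KRT7 fell from 8.92 to 3.84. The cadherin gene CDH2 measured 51.1 and 81.5 FPKM there, and the laminin gene LAMB1 measured 53.0 and 66.6. KRT18 measured 229.1 and 23.3 FPKM there, and KRT8 measured 63.9 and 15.4. For both genes the deposited interval in control 48 h lay wholly below the FPKM value itself. The intervals of these genes could therefore not be used to judge the difference. Of 9 markers of differentiated retinal pigment epithelium only MITF and OTX2 reached 1 FPKM in some library, and RPE65 was listed at 0 in every library. None of 4 immune markers reached 1 FPKM, and COL1A1 of 4 fibroblast markers and SYT1 of 3 neuronal markers did. The summed level of the fibroblast list was 0.693, 0.979, 1.12 and 2.78 FPKM, and its members COL1A2 and DCN were listed at 0 in SAF-A 48 h. The part of these marker levels in the 48 h results was not tested.

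Promoters are printed for 4 members because the comparisons below turn on them: LINC00882 and LINC01561 were higher in SAF-A 48 h, LINC00667 was lower there, and LINC00205 had intervals apart at both times. LINC00882 passed the FPKM minimum through its SAF-A 48 h value, from 6.05 estimated reads, so its rise is part of how it was chosen. Each window runs from 250 bases before to 50 after the RefSeq start on assembly GRCh38.p14, 5′ to 3′ on the strand of the gene, with every CpG in capitals. The windows are chr3:107240589-107240888 (minus strand), chr10:120597699-120597998 (plus), chr18:5237850-5238149 (plus) and chr21:45287802-45288101 (plus).
LINC00882: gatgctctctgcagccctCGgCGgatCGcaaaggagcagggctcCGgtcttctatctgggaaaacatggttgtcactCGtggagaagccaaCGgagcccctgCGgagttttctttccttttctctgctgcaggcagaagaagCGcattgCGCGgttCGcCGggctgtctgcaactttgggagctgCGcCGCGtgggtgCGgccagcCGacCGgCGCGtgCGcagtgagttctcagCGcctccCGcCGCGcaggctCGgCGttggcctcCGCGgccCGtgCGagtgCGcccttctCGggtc
LINC01561: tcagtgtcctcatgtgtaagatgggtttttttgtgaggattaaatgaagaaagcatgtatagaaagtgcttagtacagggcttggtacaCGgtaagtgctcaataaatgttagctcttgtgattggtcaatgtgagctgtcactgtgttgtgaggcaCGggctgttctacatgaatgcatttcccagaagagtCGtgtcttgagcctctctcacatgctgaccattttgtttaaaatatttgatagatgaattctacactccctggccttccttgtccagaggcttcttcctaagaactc
LINC00667: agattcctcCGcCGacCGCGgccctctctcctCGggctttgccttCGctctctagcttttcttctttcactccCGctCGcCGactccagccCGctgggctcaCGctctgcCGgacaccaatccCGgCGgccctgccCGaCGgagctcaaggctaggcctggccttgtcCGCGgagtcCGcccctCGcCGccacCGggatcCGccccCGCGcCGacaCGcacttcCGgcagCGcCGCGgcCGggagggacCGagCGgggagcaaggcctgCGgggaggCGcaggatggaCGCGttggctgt
LINC00205: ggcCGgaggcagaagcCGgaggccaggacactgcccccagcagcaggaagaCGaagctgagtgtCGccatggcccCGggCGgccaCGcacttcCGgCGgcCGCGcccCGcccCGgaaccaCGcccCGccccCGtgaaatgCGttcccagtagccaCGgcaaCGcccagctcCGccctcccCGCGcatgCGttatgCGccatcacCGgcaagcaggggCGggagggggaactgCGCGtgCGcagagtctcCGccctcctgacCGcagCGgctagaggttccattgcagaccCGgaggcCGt
The LINC00882 window holds 33 CpG, that of LINC00667 38 and that of LINC00205 34, and that of LINC01561 holds 3. A window was called CpG-rich at 50% or more G and C with an observed-to-expected CpG ratio of at least 0.6. Of the 52 members with an entry in the RefSeq promoter table, 25 (48.1%) were CpG-rich. The share was 46.9% of all 27305 promoters of the table, 14.6% of the 1580 LINC promoters and 82.6% of the 9518 tested symbols with an entry. These shares describe the lists, and the choice by FPKM is part of them.

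The transfected SAF-A siRNA is shown because its seed can touch other transcripts. In the strand given in the labels, the stretch in capitals is the 7-base site that pairs with bases 2 to 8 of the antisense strand.
SAF-A siRNA: ccugggaaucgtggcggATATAATa
The site ATATAAT was searched on the sense strand of spliced transcripts built from hg19. It was present in 8 of the 66 members (12.1%) and in 21.3% of the 12070 transcripts tested. The whole 25-base sequence matched 1 tested transcript and no LINC gene. The median difference in log2(FPKM + 0.5) between SAF-A and control at 24 h was 0.01 for the 8 members with the site and 0.09 for the 58 without. Over all symbols tested the 24 h median was −0.07 both with and without the site. At 48 h these medians were −0.70 and −0.34, and over all symbols tested they were −0.30 with the site and −0.12 without.

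The LINC genes were expressed at low levels. Their mean FPKM over the 4 libraries had a median of 1.61, against 8.59 over all symbols tested. Of the 66, 8 had a mean of at least 5 FPKM, 42 lay between 1 and 5 and 16 below 1. Their FPKM summed to 146.1 in control 24 h, 154.8 in SAF-A 24 h, 156.3 in control 48 h and 158.1 in SAF-A 48 h, which is 0.0388%, 0.0398%, 0.0409% and 0.0352% of the FPKM of all symbols tested. The sums lay within a narrow range, and 12.4 FPKM of the SAF-A 48 h sum came from LINC00882 alone. A further 235 of the 689 LINC symbols of at least 300 nt were listed at 0 in every library.

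LINC02067, a 4-exon RNA between SPTSSB and OTOL1 on chromosome 3 (hg19 161144215 to 161166030), was the most abundant. It measured 13.1 FPKM in control 24 h, 14.4 in SAF-A 24 h, 14.8 in control 48 h and 9.91 in SAF-A 48 h. Its lowest value was the SAF-A 48 h library, whose interval of 6.39 to 13.4 lay below the 14.0 to 15.7 of its control. LINC02104, between DAB2 and PTGER4 on chromosome 5, measured 5.50, 6.18, 4.87 and 14.6 FPKM. The last value came from 7.06 estimated reads, and its interval of 3.55 to 25.6 contained the other 3 values. LINC00472, described elsewhere as a growth-restraining RNA in breast tumours, measured 5.78, 5.86, 11.3 and 6.93 FPKM. It was high in the control 48 h library alone, and the 24 h intervals overlapped.

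The next members by mean were LINC00467, LINC00339, LINC00863, LINC00667 and LINC00839. LINC00467 measured 5.27, 5.53, 6.57 and 7.42 FPKM. LINC00339, which lies near CDC42, measured 6.64, 7.29, 7.10 and 3.74 FPKM. LINC00863 measured 5.66, 5.81, 5.47 and 7.28 FPKM. In these 3 genes the intervals of all 4 libraries overlapped. By mean, neighbours in this order were close, with LINC00863 at 6.05 FPKM, LINC00667 at 6.01 and LINC00839 at 5.94. Over the 3 libraries other than SAF-A 48 h their means were 5.65, 7.44 and 7.09 FPKM, so this order depended on the SAF-A 48 h values.

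**Figure D1:**
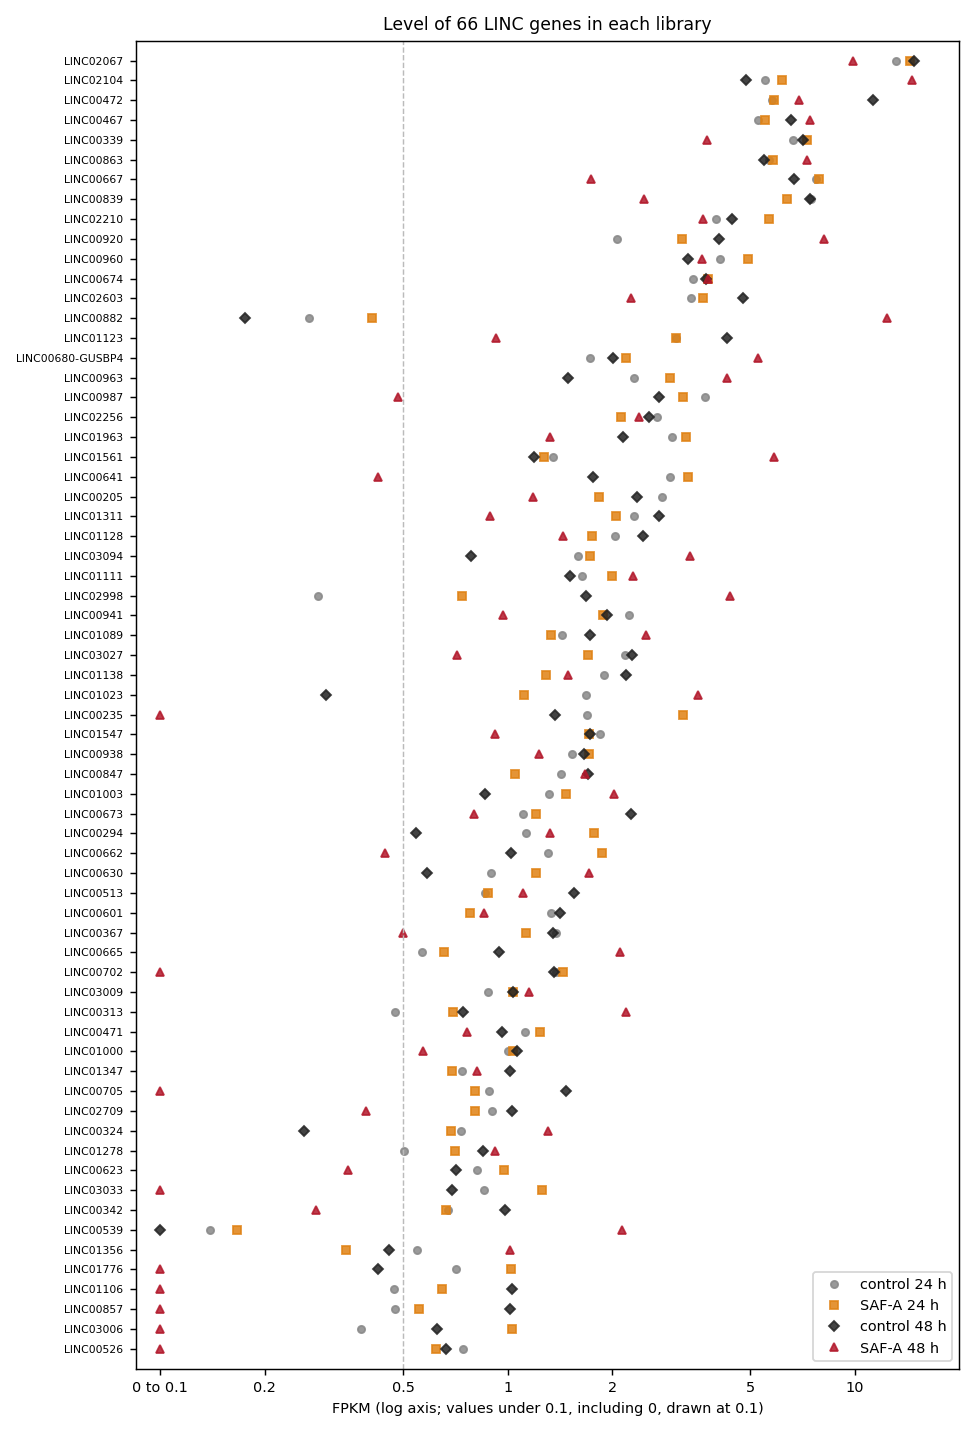
FPKM (log axis) of the 66 LINC genes in the control and SAF-A libraries of 24 h and 48 h, 1 library each, ordered by the mean over the 4 libraries, with the dashed line at the minimum of 0.5 and values under 0.1 drawn at 0.1. The SAF-A 48 h points scatter around those of the other libraries, and 8 of them are listed at 0.

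The shallow library also bears on which genes were kept. On the mean over the other 3 libraries 63 of the 66 stayed at or above 0.5 FPKM. LINC00882 had a mean of 0.284 over those 3, LINC00539 of 0.102, with a 0 in control 48 h, and LINC01356 of 0.448. These 3 are members through their SAF-A 48 h values. At the edge of the rule stood LINC00857 with a mean of 0.512 FPKM, LINC03006 with 0.508 and LINC00526 with 0.508. Just outside it were LINC00997 with 0.425, LINC00639 with 0.375 and LINC00520 with 0.374. The gap between LINC00526 and LINC00997 was narrower than the interval of LINC00526 in control 24 h alone (0.432 to 1.05 FPKM).

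At 24 h the question was whether LINC RNAs differ between cells given SAF-A siRNA and cells given control siRNA. None did by the criterion used for calls, a difference of at least 2-fold in FPKM + 0.5 with deposited 95% intervals that do not overlap. The counts were 0 of 66 higher and 0 of 66 lower, where 0.53% of all symbols tested were called higher and 0.331% lower. The differences in log2(FPKM + 0.5) ran from −0.52 to 0.80, and 42 were positive and 24 negative. Their median was 0.08 against −0.07 over all symbols tested, and rescaled to TPM it was −0.05. For 28 of the 66 genes the deposited intervals were narrow enough to keep the ratio of SAF-A to control within 2-fold both ways. For the rest a 2-fold difference lay within the intervals.

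The extremes of that range were weakly counted. LINC03006 measured 0.379 FPKM (interval 0 to 0.825) in control 24 h and 1.03 (0.385 to 1.69) in SAF-A 24 h, from 5.55 and 15.5 estimated reads. LINC00235 measured 1.70 FPKM (0.873 to 2.52) and 3.19 (2.1 to 4.29). LINC00601 stood at the low end with 1.33 FPKM (0.878 to 1.78) and 0.777 (0.451 to 1.10). In all 3 the intervals of SAF-A and control overlapped.

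Intervals without overlap at any fold were found for 2 members at 24 h, 1 higher (background 8.11% of all symbols tested) and 1 lower (background 17.3%). These shares of 1.52% each lay below the background, which was not matched for level. The median mean FPKM was 1.61 for the members and 8.59 over all symbols tested. Genes with fewer reads need a larger difference for intervals to be apart, and the part of this was not tested. LINC00205 is a 3-exon RNA of 7165 nt on chromosome 21 (hg19 46707967 to 46717269, plus strand), and its start lies 156 nt from that of POFUT2, a protein O-fucosyltransferase gene read in the other direction. It measured 2.78 FPKM (2.54 to 3.02, 543 reads) in control 24 h and 1.83 (1.64 to 2.01, 391 reads) in SAF-A 24 h, which is 65.9% of control. At 48 h it measured 2.36 (2.14 to 2.58, 469 reads) and 1.18 FPKM (0.418 to 1.94, 10.0 reads), which is 50.1% of control. Both SAF-A libraries were low, and both pairs of intervals were apart, which held for no other of the 66 genes. Of all symbols tested, 17.3% at 24 h and 25.2% at 48 h had a SAF-A interval below control. The share below at both times was not counted, so LINC00205 is not set apart from the background. The ratio bounds from the intervals were 54.5% to 79.4% at 24 h and 16.2% to 90.9% at 48 h, and the log2 differences of −0.49 and −0.77 stayed under 2-fold. POFUT2, from the shared start region, measured 8.08, 8.69, 7.88 and 13.6 FPKM in the 4 libraries, so its SAF-A values were not below control.

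LINC00294, a single-exon RNA of 3305 nt between TCP11L1 and CSTF3 on chromosome 11, was the member with the higher interval. It measured 1.13 FPKM (0.898 to 1.36) in control 24 h and 1.77 (1.5 to 2.04) in SAF-A 24 h, which is 157% of control. At 48 h it measured 0.546 (0.387 to 0.704) in control and 1.33 (0.14 to 2.51) in SAF-A, from 5.01 reads in the latter. SAF-A was the higher library at both times, but the 48 h intervals overlapped. The control level itself was lower at 48 h than at 24 h.

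**Figure D2:**
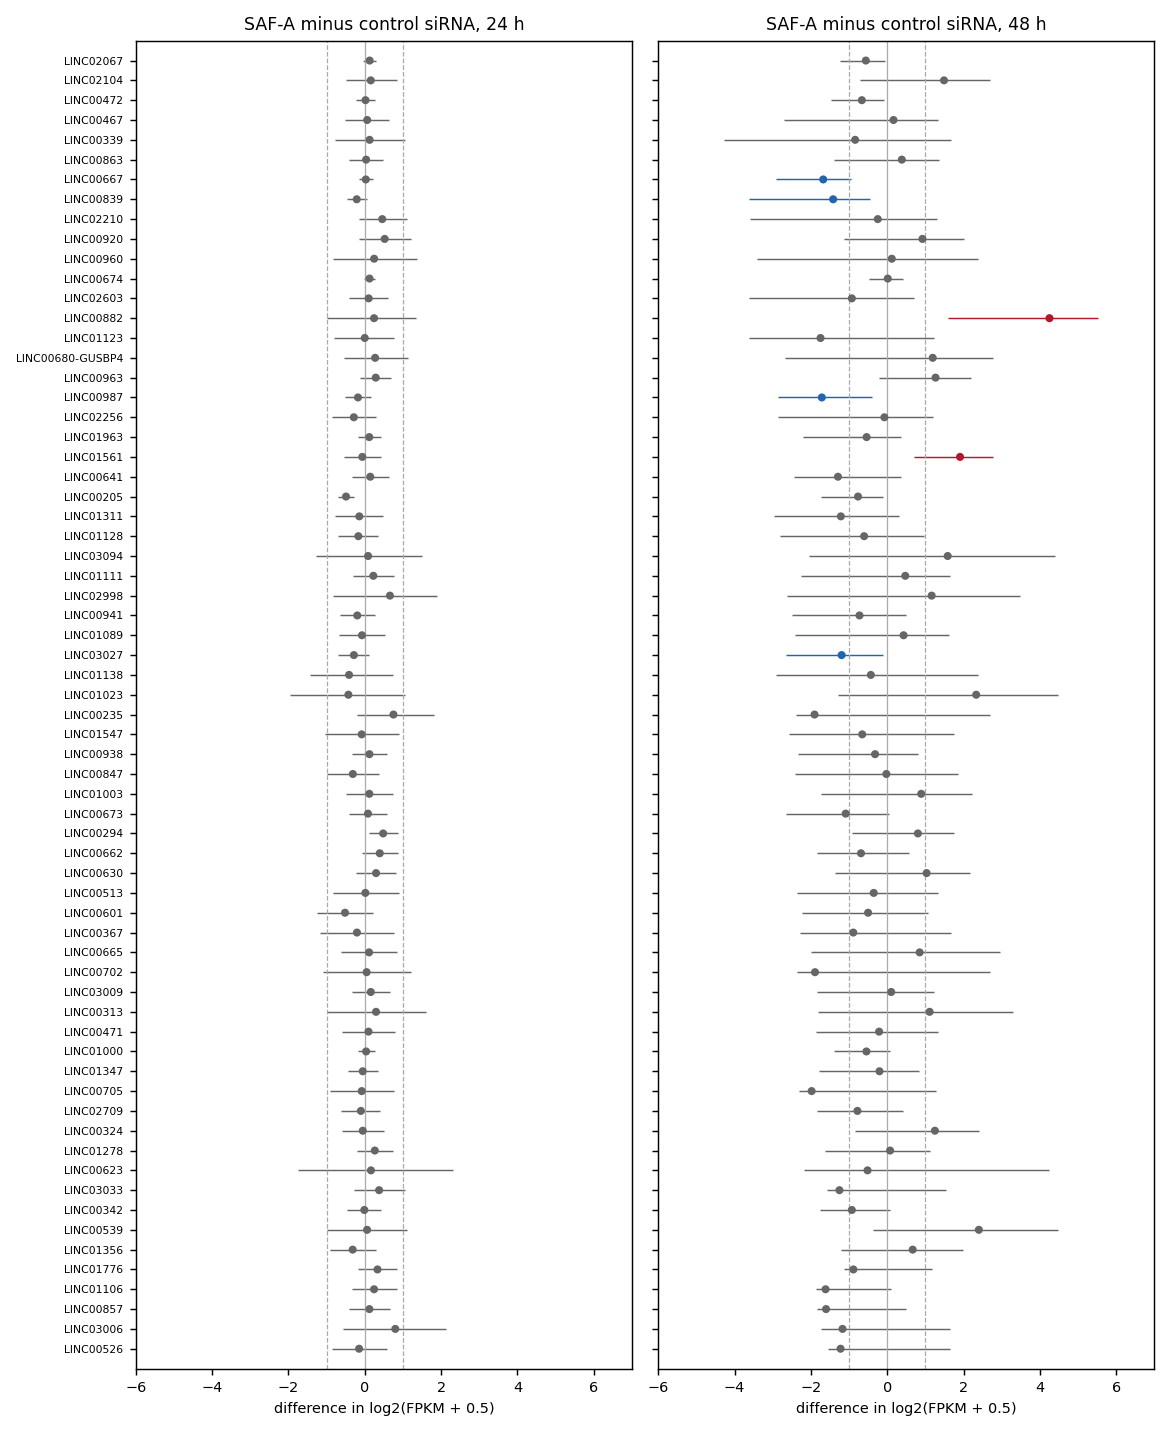
Difference in log2(FPKM + 0.5) between SAF-A and control siRNA for the 66 LINC genes at 24 h and at 48 h, 1 library per group, with bars spanning the range that the most extreme interval bounds allow. At 24 h every gene lies between −0.52 and 0.80 and none is called. At 48 h the bars are wide, and 2 genes called higher and 4 called lower (zeros given the bound of 3 reads) are coloured.

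At 48 h after SAF-A siRNA 2 LINC genes were called higher, LINC00882 and LINC01561. That is 2 of 66, where 12.4% of all symbols tested were called higher. Called lower were 11 of 66, where 19.1% of all symbols tested were. Of those 11, 7 were listed at 0 in SAF-A 48 h, where the deposited interval is also 0. With an upper bound of 3 reads at 0, chosen after seeing the data, 4 remained: LINC00667, LINC00839, LINC00987 and LINC03027. The bound was widened only at 0. LINC00987 and LINC03027, with 1.34 and 2.0 reads in SAF-A 48 h, kept their deposited intervals, and their calls depend on these. The background lower was then 16.9%. The median difference was −0.47 against −0.16 over all symbols tested, with 25 positive and 41 negative. At a mean of 1 FPKM or more (50 members) the median was −0.28. A difference of at least 2-fold, whatever the interval, was measured for 12 members higher (18.2%, background 14.8%) and 16 lower (24.2%, background 22.4%). The 12 include LINC00882 and LINC00539, which passed the FPKM minimum through their SAF-A 48 h values. Their rise is part of how they were chosen, so the share of 18.2% cannot be set against the background. LINC00674, with 50.5 reads in SAF-A 48 h, was the only member whose intervals kept the ratio within 2-fold both ways: it measured 3.73 FPKM in control 48 h and 3.77 in SAF-A 48 h.

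LINC00882 (NR_028303, 603 nt, 4 exons) lies on the minus strand of chromosome 3 (hg19 106828637 to 106959485), between CBLB and CCDC54. It measured 0.268 FPKM (0 to 0.577) in control 24 h, 0.408 (0.0431 to 0.773) in SAF-A 24 h, 0.175 (0 to 0.424) in control 48 h and 12.4 (2.27 to 22.4) in SAF-A 48 h. The SAF-A 48 h library alone was high, and its interval lay above the other 3. The numbers of estimated reads were 3.03, 5.04, 2.02 and 6.05, so the difference of 4.25 in log2(FPKM + 0.5) rests on 6.05 reads. The intervals put the SAF-A level at 48 h at 535% of control or more. Since LINC00882 passed the FPKM minimum through this value, its difference is part of how it was chosen.

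LINC01561 (NR_103717, 2175 nt, 1 exon) lies on chromosome 10 (hg19 122357461 to 122359635, plus strand) between PLPP4 and WDR11. LINC01561 lies inside the span of a same-strand transcript mapped to the microRNA gene MIR5694. It measured 1.35 FPKM (1.04 to 1.67) in control 24 h, 1.27 (0.981 to 1.56) in SAF-A 24 h, 1.19 (0.893 to 1.49) in control 48 h and 5.84 (2.72 to 8.96) in SAF-A 48 h. The first 3 libraries overlapped, and SAF-A 48 h lay above them. The increase was 1.91 in log2(FPKM + 0.5), from 67.1 reads in control 48 h and 14.0 in SAF-A 48 h, and the ratio was 491% of control with bounds of 183% and 1003%.

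LINC00667 (NR_015389, 3977 nt, 3 exons) starts on chromosome 18 (hg19 5238099 to 5246505, plus strand) 71 nt from LINC00526, another member, read in the other direction. LINC00667 measured 7.75 FPKM (7.20 to 8.29), 7.90 (7.37 to 8.43), 6.67 (6.17 to 7.17) and 1.74 (0.510 to 2.97) in the 4 libraries. SAF-A 48 h alone was low, at 26.1% of control with bounds of 7.12% and 48.2%, from 8.01 reads. This difference of −1.68 was the only one of the 4 whose bounds stayed beyond 2-fold. LINC00526 measured 0.743, 0.621 and 0.667 FPKM in the first 3 libraries and was listed at 0 in SAF-A 48 h, where 0.897 reads would be expected at the control level.

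LINC00839 (NR_026827, 2306 nt, 5 exons) lies on chromosome 10 (hg19 42970939 to 42990785, plus strand) between the zinc finger genes ZNF37A and ZNF33B. It measured 7.45 FPKM (6.74 to 8.17), 6.37 (5.74 to 6.99), 7.45 (6.74 to 8.16) and 2.48 (0.203 to 4.75), with the last from 6.34 reads. The control libraries had the same level, SAF-A 24 h overlapped control 24 h, and SAF-A 48 h was below all 3. The difference at 48 h was −1.42, or 33.3% of control.

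LINC00987 (NR_036466, 2469 nt, 2 exons, chromosome 12, hg19 9392599 to 9395645, plus strand) measured 3.69 FPKM (3.20 to 4.18), 3.20 (2.77 to 3.64), 2.73 (2.31 to 3.14) and 0.484 (0 to 1.64). LINC03027 (NR_036533, 2505 nt, 1 exon, chromosome 10, hg19 22724354 to 22726858, minus strand) measured 2.18 (1.81 to 2.55), 1.70 (1.39 to 2.01), 2.28 (1.91 to 2.65) and 0.714 (0 to 1.73). Both were lowest in SAF-A 48 h, and the interval of LINC03027 there still overlapped that of SAF-A 24 h. These levels came from 1.34 and 2.0 reads, and against control 48 h the genes fell by 1.71 and 1.20 on the log2 scale. Their ratios to control were 17.7% (bounds 0 and 71.1%) and 31.3% (0 and 90.5%).

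**Figure D3:**
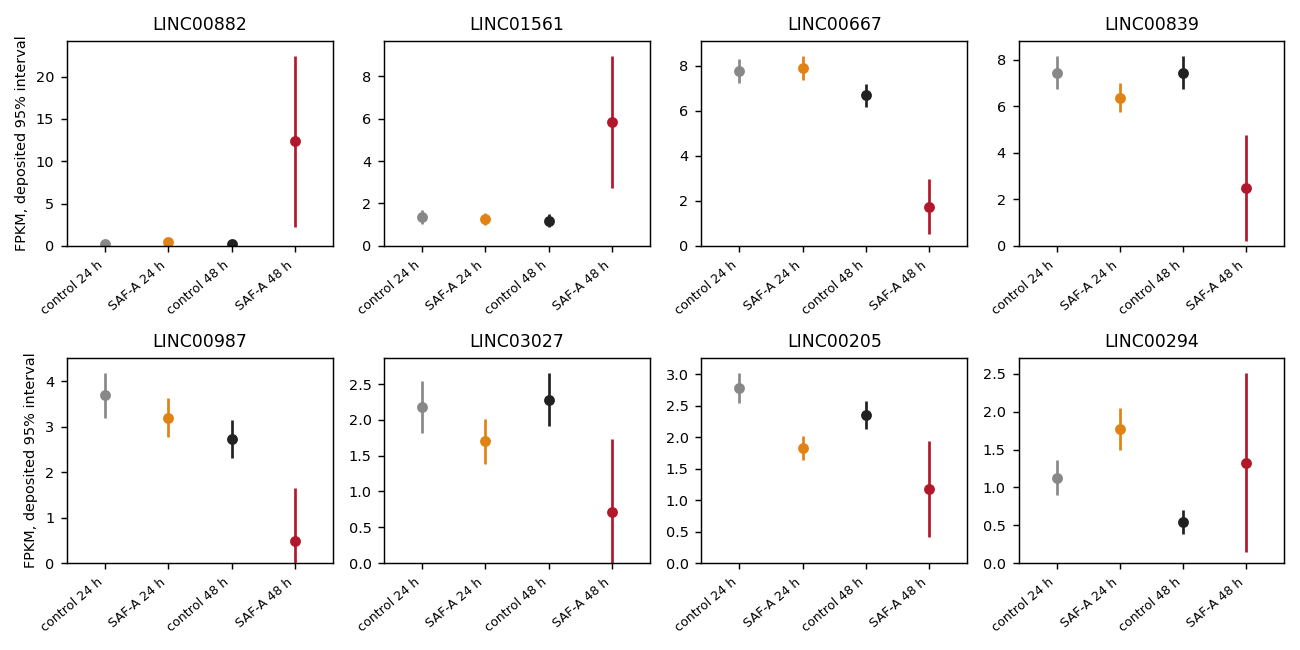
FPKM with the deposited 95% interval (bars) in the control and SAF-A libraries of 24 h and 48 h, 1 library each, for LINC00882, LINC01561, LINC00667, LINC00839, LINC00987, LINC03027, LINC00205 and LINC00294. LINC00882 and LINC01561 stand high in SAF-A 48 h only, the next 4 stand low there only, and LINC00205 is below its control at both times.

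The 7 genes listed at 0 and called lower were LINC00235, LINC00702, LINC00705, LINC03033, LINC00857, LINC03006 and LINC00526. LINC01776 was the other gene listed at 0. LINC00235, a single-exon RNA of 561 nt on chromosome 16, measured 1.70, 3.19 and 1.37 FPKM in the first 3 libraries and was listed at 0 in SAF-A 48 h, where 3 reads are worth 6.84 FPKM. LINC00702, a 3-exon RNA of 565 nt on chromosome 10, measured 1.38, 1.44 and 1.36 FPKM before its 0, where 3 reads are worth 6.76 FPKM. At the level of control 48 h, each of the 8 would have given 0.602 to 2.43 reads in SAF-A 48 h, so a fall was not detectable at this depth. LINC01106 was deposited with a value that rounds to 0 in SAF-A 48 h, with a deposited upper bound of 0.831 FPKM and 1.03 FPKM in control 48 h.

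With overlapping intervals, another 10 members were 2-fold or more above control at 48 h, and 5 were as far below. LINC00963, an RNA studied in prostate cancer, measured 2.31 FPKM, 2.93, 1.49 (1.16 to 1.83) and 4.29 (1.52 to 7.06), the last from 10.0 reads. It was the best counted of the 10. LINC01023 and LINC00539 had the widest differences, 2.33 and 2.40, each from about 1 read in SAF-A 48 h (1.02 and 1.01). LINC00539 was kept through that value, so its difference is part of how it was chosen. The other 7 were LINC02104 (1.49), LINC03094 (1.58), LINC00324 (1.25), LINC00680-GUSBP4 (1.19), LINC02998 (1.16), LINC00313 (1.11) and LINC00630 (1.03), from 1.01 to 7.06 reads. The 5 lower ones were LINC01123 (−1.75), LINC01106 (−1.62), LINC00641 (−1.29), LINC01311 (−1.22) and LINC00673 (−1.09), with at most 2.0 reads each. Most of these 15 differences rested on fewer than 5 reads.

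No member was called in the same direction at 24 h and 48 h, where 27 and 17 of all symbols tested were called higher and lower at both. By sign alone, 20 members were higher in SAF-A at both times, 19 lower at both and 27 opposite. With the bound of 3 reads at 0, and besides LINC00205 and the 4 called lower, 2 members had a SAF-A interval below that of control at 48 h. They were LINC02067, with 66.7% of control, and LINC00472, with 61.4% of control. Together these are 7 of 66 lower (10.6%), against 25.2% of all symbols tested, and 2 of 66 higher (3.03%), against 20.9%. With the deposited bounds the 8 genes listed at 0 are added, which gives 15 of 66 lower (22.7%), against 27.4% of all symbols tested. For the many members with few reads, the intervals could not have been apart unless the difference was large.

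**Figure D4:**
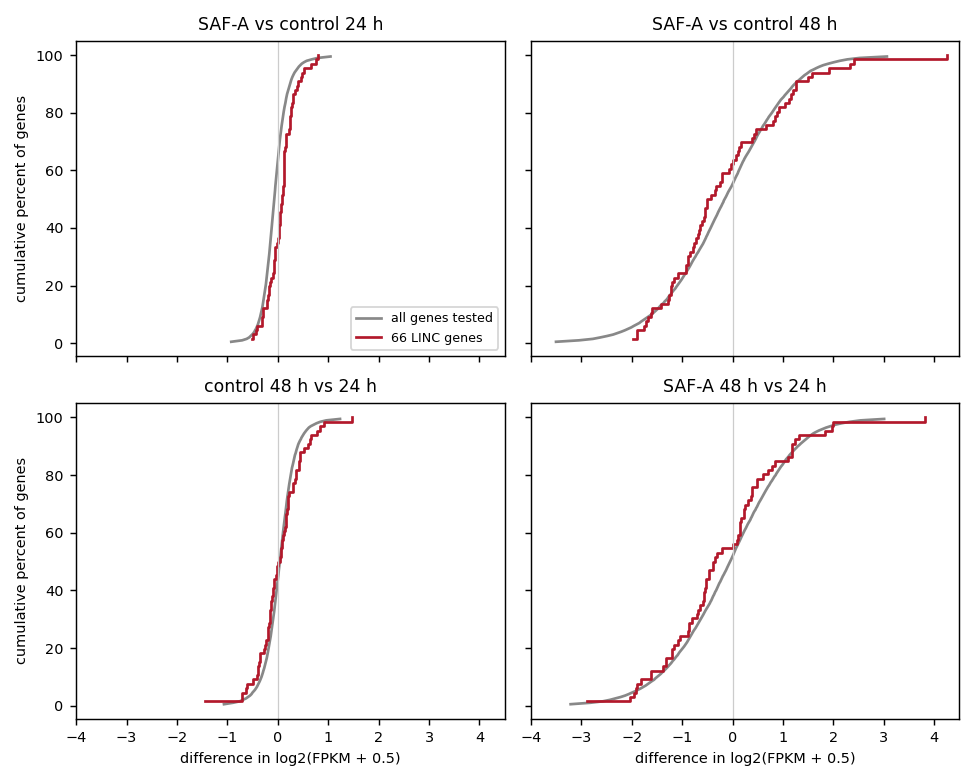
Cumulative share (%) of the 66 LINC genes and of all 12077 symbols tested by difference in log2(FPKM + 0.5), for SAF-A against control at 24 h and 48 h and for 48 h against 24 h under each siRNA. The 24 h and control curves rise steeply near 0 for both sets, and both comparisons with the SAF-A 48 h library spread widely for both sets.

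Time after transfection was compared under each siRNA. Between the control libraries 1 of 66 members was called higher at 48 h, where 0.811% of all symbols tested were, and 0 were called lower, where 0.613% were. The gene was LINC02998, which lies between SNX18 and ESM1 on chromosome 5. It measured 0.285 FPKM (0 to 0.781) in control 24 h, 0.738 (0.217 to 1.36) in SAF-A 24 h, 1.68 (0.858 to 2.61) in control 48 h and 4.38 (0 to 14.6) in SAF-A 48 h. It was higher at 48 h than at 24 h under both siRNAs, but the SAF-A intervals overlapped. The median difference of the members was 0.03, against 0.04 over all symbols tested, and its sign turned under 3 alternatives.

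With intervals apart at any fold, 6 members were higher in control 48 h than in control 24 h and 7 lower, where the background was 18.2% and 12.5%. The 6 were LINC00472, LINC00920, LINC02998, LINC00673, LINC01106 and LINC00857. LINC00472 had 195% of its 24 h level, with bounds of 166% and 230%, from 444 and 881 reads. LINC00920 measured 2.06 and 4.05 FPKM, and LINC00673, an RNA studied in pancreatic cancer, measured 1.11 and 2.27. In these 3 RNAs the intervals were apart, and the difference in log2(FPKM + 0.5) was under 2-fold for LINC00472 (0.91), LINC00920 (0.83) and LINC00673 (0.78). The 7 lower members were LINC00667, LINC00963, LINC00987, LINC01963, LINC00641, LINC00294 and LINC00324. LINC00294, at 48.4% of its 24 h level, and LINC00324, which measured 0.735 and 0.259 FPKM, were the lowest of the 7 relative to 24 h.

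Under SAF-A siRNA 2 members were called higher at 48 h than at 24 h (background 13.6%), again LINC00882 and LINC01561. Called lower were 14 (background 16.5%), of which 8 were listed at 0. With the bound of 3 reads 6 were called lower (background 14.2%): LINC00667, LINC00839, LINC00987, LINC01963, LINC00641 and LINC00662. LINC00641 measured 2.94 FPKM, 3.30, 1.76 and 0.424 in the 4 libraries, so that it was lower at 48 h under both siRNAs. LINC01963 measured 2.97, 3.27, 2.16 and 1.33 FPKM, also lower at 48 h under both. LINC00662 measured 1.31, 1.87, 1.02 and 0.445 FPKM, the last from 1.00 read. Its call depends on the deposited interval of that value (0 to 1.33), which was not widened. With intervals apart at any fold and that bound, 2 were higher (background 22.6%) and 7 lower (background 22%), where LINC02067 joined the 6. With the deposited bounds 15 were lower (22.7%, background 24.4%). The comparison shares the SAF-A 48 h library with the one above, so the same values enter both.

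The LINC genes had short transcripts with few exons. Their longest spliced transcript had a median of 1864 nt, against 3095 nt for the 10983 protein-coding symbols tested. The median number of exons was 3 against 9, and 12 LINC genes had a single exon. GC content was close, with medians of 49.7% and 48.4%. GENCODE gave the type lncRNA to 52 members and another type to 4, and 10 symbols had no entry there. The 4, LINC00674, LINC01347, LINC02210 and LINC03006, were typed as transcribed pseudogenes, as was LINC00680-GUSBP4 by RefSeq. The members lay on 21 chromosomes, with 8 each on chromosomes 1 and 10. At 48 h the 12 single-exon members had a median SAF-A difference of −0.43 and the 54 with more exons −0.47. The 25 with a CpG-rich promoter had −0.67 and the 27 without −0.02, with ranges of −1.90 to 4.25 and −1.98 to 2.40. At 24 h the medians of these promoter groups were 0.03 and 0.12.

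The name intergenic did not hold for every exon. Of the 66 members 9 shared exonic bases with another symbol or with an accession that had no symbol, 5 of them on the opposite strand. The kit is not described in the labels as keeping strand, so reads on the opposite strand could not be told apart. The largest shares were 73.4% of the exonic bases of LINC01128, 60.9% of those of LINC01138 and 50.1% of those of LINC01106, which overlaps LINC01123. For LINC01128 and LINC01138 the overlap was only with same-strand accessions that had no symbol. Whether those accessions are transcripts of the same genes was not tested. LINC01128 measured 2.03, 1.75, 2.45 and 1.44 FPKM, LINC01138 measured 1.89, 1.29, 2.19 and 1.49, and LINC01106 measured 0.470, 0.648, 1.03 and 0.00. Values of these 3 genes are uncertain, since the authors' assignment could split their reads. Of the genes called above, LINC03006 shares exons, with 12.3% of its exonic bases on pseudogenes of the opposite strand.

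Among members with several RefSeq transcripts the assignment to isoforms varied between libraries. LINC00339 gave 73.0%, 64.8%, 86.7% and 47.4% of its FPKM to the transcript NR_109759 in the 4 libraries. LINC00847 gave 98.3% and 97.9% to NR_045678 in the 24 h libraries, 0.0756% in control 48 h and 72.7% in SAF-A 48 h. In control 48 h 99.9% went to NR_027183 instead. The transcripts have 1871 and 1894 nt, so the reads that separate them are few, and the sum over the gene moved less: 1.42, 1.05, 1.71 and 1.67 FPKM.

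The nearest protein-coding gene on each side was read from RefSeq order. Of 128 flanking genes 78 passed the minimums. At 24 h 1 of the 78 (1.28%) was called higher and none lower, where 0.53% and 0.331% of all symbols tested were. The gene called higher was CAPRIN2, which encodes a cytoplasmic RNA-binding protein. CAPRIN2 measured 6.31, 13.5, 6.04 and 29.6 FPKM in the 4 libraries, so it was high in both SAF-A libraries. Its neighbour LINC00941 measured 2.23, 1.88, 1.94 and 0.972 FPKM. At 48 h 11 (14.1%) of the flanking genes were called higher and 18 (23.1%) lower with the bound of 3 reads, where 12.4% and 16.9% of all symbols tested were.

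The tested neighbours of LINC00882 and LINC01561 have values of their own at 48 h. Nothing is read from LINC00882 and its neighbour together, since that gene was kept through its SAF-A 48 h value of 6.05 reads. CBLB, a ubiquitin ligase gene next to LINC00882, measured 1.47, 1.51, 1.94 and 5.01 FPKM, and rose by 1.18 at 48 h. PLPP4, a phospholipid phosphatase gene next to LINC01561, measured 41.1, 38.6, 42.3 and 136.7 FPKM, a rise of 1.68. WDR11, on the other side, measured 12.5, 14.5, 10.4 and 27.6 FPKM, a rise of 1.37. These 3 genes are all the tested neighbours of the 2 members, since CCDC54 was listed at 0.

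Beside the members that were lower, tested neighbours were few. ZNF37A, next to LINC00839, measured 4.71, 3.91, 4.52 and 1.55 FPKM and fell by 1.29 at 48 h. ZNF33B, on its other side, measured 4.95, 3.67, 5.21 and 4.57 FPKM and was not called. ZBTB14, next to LINC00667, measured 3.49, 3.62, 3.33 and 1.57 FPKM and was not called. The neighbours KLRG1 and KLRB1 of LINC00987 and SPAG6 of LINC03027 were at or near 0.

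LINC00235 starts 449 nt from CAPN15, a calpain gene read in the other direction. CAPN15 measured 15.6, 11.1, 16.1 and 1.99 FPKM in the 4 libraries and fell by 2.74 at 48 h. LINC00641 lies next to HNRNPC, which encodes an abundant nuclear RNA-binding protein. HNRNPC measured 213.6, 189.3, 181.3 and 69.6 FPKM and fell by 1.37 at 48 h. LINC00641 itself had a difference of −1.29 there with overlapping intervals. The neighbours of LINC00294 were called in opposite directions, with TCP11L1 called higher and CSTF3, a subunit of the cleavage stimulation factor, called lower at 48 h.

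The nuclear exosome, its cofactors and adaptors turn over noncoding RNA, and all 20 genes of that list passed the minimums. At 24 h 0 of 20 were called, with a median difference of −0.14 against −0.07 over all symbols tested. At 48 h 1 (background 12.4%) was called higher and 4 (background 16.9%) lower, with a median of −0.30 against −0.16. The gene that rose was EXOSC8, a core subunit, from 24.0 FPKM in control 48 h to 57.2 in SAF-A 48 h. The genes that fell were the cap subunits EXOSC2 (31.8 to 6.84) and EXOSC3 (21.3 to 9.69) and the core subunits EXOSC4 (33.2 to 5.95) and EXOSC6 (27.3 to 7.14). MTREX, the helicase that feeds RNA to the complex, measured 44.9 and 53.0 FPKM and was not called. In SAF-A 48 h the 4 genes that fell had 5.03 (EXOSC4) to 18.0 (EXOSC3) estimated reads, and EXOSC8 had 84.2. Core subunits were called in both directions at 48 h, but the list is too small for its counts to be set apart from the background shares.

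Kindred classes were set beside the members. A group of 53 tested genes once carried a LINC name and has since been renamed, of which RefSeq types 40 as long noncoding RNA. At 24 h 0 of these 40 were called and their median was 0.02. At 48 h, with the bound of 3 reads, 3 were called higher (background 12.4%) and 16 lower (background 16.9%), with a median of −1.05. Antisense RNAs, 166 in number, had a median of −0.01 at 24 h and of −0.93 at 48 h. At 48 h 4 of the 166 were called higher (background 12.4%) and 27 lower (background 16.9%). All classes of long noncoding RNA here had a lower median than all symbols tested in the comparison with the SAF-A 48 h library, where their low read numbers enter as well, and the part of those was not tested.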

How the data were processed

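RNA-seq libraries of RPE1 cells were deposited as 1 gene table and 1 transcript file each. The authors' FPKM values, their 95% bounds and a status are given per the file headers. The transcript files also hold a deposited coverage value, of another unit, from which only the mapped reads were derived. TopHat2 2.0.10, Bowtie2 2.1.0, TopHat, Cufflinks 2.2.1, Cuffdiff and hg19 are named per the submitters' processing notes, without their roles; use of strand is not given in the sources used here. Of the 233545 exons of the files 85.6%, and of the 294 of the members 61.6%, were identical to a GENCODE exon mapped to GRCh37.

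The 47338 rows per table were joined to symbols by accession through RefSeq (GRCh38.p14, names and gene order only, 97.1% matched), and FPKM and bounds were summed per symbol, which widens the intervals. Estimated reads are FPKM times effective length (fragments of 200 nt, SD 80) times mapped reads. They and the intervals cover counting error only. A gene was called at 2-fold or more in FPKM + 0.5 with intervals apart. Flanking genes and other lists were called with 3 reads as upper bound at 0. With 1 library per group no test was run, nor a fit additive in siRNA and time. The call was checked on simulated data.

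Named genes were HNRNPU, the 8 highest members, up to 5 called each way per comparison of siRNA (3 for time), the 3 on each side of the FPKM minimum, the 3 with most shared exons and flanking genes. LINC00205, LINC00294, LINC03027 and other genes singled out were chosen after their values were seen. Members and lists were chosen with earlier results of these data known. Alternatives were pseudocounts of 0.1 and 1, no FPKM minimum or 1 FPKM, 2-fold alone, row bounds combined as squares, TPM, centring, 3-library means, no shared exons, and, added after seeing the data, 3 reads as bound at 0 and intervals apart at any fold. Promoters came from RefSeq (52 of 66 matched). Python 3.11.15 with pandas 2.3.3, numpy 2.4.6, scipy 1.17.1 and matplotlib 3.10.9 was used.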

Additional observations from a re-analysis of the deposited data

Results flagged for a closer look

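The median difference in log2(FPKM + 0.5) of the 66 LINC genes between SAF-A and control siRNA was 0.08 at 24 h and -0.47 at 48 h, of opposite sign. The median difference between 48 h and 24 h was 0.03 under control siRNA and -0.37 under SAF-A siRNA. At a mean of 1 FPKM or more the lower medians were -0.28 and -0.11. Neither difference was tested, and both lower medians involve the SAF-A 48 h library, the shallowest of the 4.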

How the results depend on the processing

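Over 12 alternatives, 103 of 120 counts of called members stayed within 1.5 times, and 17 of 32 medians did so with their sign kept, while 11 moved further and 4 turned. Without an FPKM minimum, which adds LINC genes at or near 0, all 4 medians were 0.0000. At 24 h the median was -0.0534 in TPM and 0.1552 centred on all symbols tested. At 48 h it was -0.2833 at a mean of 1 FPKM or more and -0.3084 centred. With time under SAF-A siRNA it was -0.1087 at a mean of 1 FPKM or more and -0.1836 in TPM. With deposited intervals apart at any fold, the counts of higher and lower members were 1 and 1 at 24 h, 6 and 7 between the control libraries, and 1 member was lower at both times. With 2-fold alone, 12 members were higher at 48 h, 10 were higher with time under SAF-A siRNA and 1 was lower with time under control siRNA, as was 1 with a pseudocount of 0.1. With members chosen on 3 libraries, LINC00882 dropped out and 1 was higher in each comparison with SAF-A 48 h. The counts lower than control at 48 h and lower with time under SAF-A siRNA were 7 and 9 with a pseudocount of 1, 6 and 8 at a mean of 1 FPKM or more, and 4 and 6 with 3 reads as bound at 0. Between the control libraries the median became -0.0099 at a mean of 1 FPKM or more, -0.0125 centred, -0.0690 without shared exons, 0.0926 in TPM and 0.0613 with members chosen on 3 libraries. The causes were not tested. No paired analysis was run, since the labels give no replicate numbers. A fit additive in siRNA and time, which would pair the libraries by time point and leave 1 residual degree of freedom, was not run. Depth limits the SAF-A 48 h library, where 48 of 66 members had under 5 estimated reads.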
